A study of Mus musculus with 4 samples.

Results

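The genes described here are the solute carriers that move mineral and acid-base ions, numbered in families 4, 8, 9, 12, 20, 24, 26 and 34. They were taken by name: every probe, outside the control spots, whose gene name in the scanner files is Slc, one of these 8 family numbers, the letter a and a member number. This gave 54 of the 34797 gene and transcript names on the array, on 85 of its 55681 probes. The rule reads names only, and these families were picked with earlier results of these data known. Of the 54 genes, 46 had a probe bright enough to be tested: 1 channel had to stand well above background, and to do so on 3 or more of the 4 arrays.

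The study compared gene expression of odontoblasts, which deposit dentin, and osteoblasts, which deposit bone, on 4 two-colour Agilent mouse arrays. Both RNAs came from 2-week-old mice that carried EGFP under a 2.3 kb fragment of the type I collagen promoter, and the animals of each pair were donor matched. Cells were released by enzymes from dental pulp or from the calvaria (the skull vault) and sorted by their fluorescence, so a sorted cell is one in which this collagen promoter was active, whatever its type. The labels give the strain C57BL/6 for the pulp cells and name no other genotype or treatment. From 250 ng of each cDNA, the odontoblast sample received Cy5 and the osteoblast sample Cy3, and no array had its dyes swapped. A dye effect of a probe would repeat on every array. However close the arrays lie, it cannot be told apart from a difference between the samples. All 4 arrays lay on 1 slide. How many animals were pooled for an array is not given, so a p-value measures the spread between these 4 arrays.

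All ratios are log2 of Cy5 (labelled odontoblast) over Cy3 (labelled osteoblast). Errors of a mean are limma's moderated SE for n = 4 arrays, in which each feature's variance is drawn toward that of all features. Several genes known to mark the cells ran against the labels. Of 7 odontoblast markers 3 were called, all higher in Cy3, and of 10 osteoblast markers 5 were called, all higher in Cy5. Others did not follow: Cpne7 of the odontoblast list had a ratio of 0.29 and Sp7 of the osteoblast list 0.02. Bglap, also of the osteoblast list, had 1.34, with 2 arrays on each side of 0. Dspp, the precursor of dentin sialoprotein, had a ratio of -1.95 (adjusted p = 0.0605) and Wnt10a, a Wnt ligand of odontoblasts, one of -5.91 (adjusted p = 0.00580, limma). Ifitm5, a membrane protein of mineralizing osteoblasts, had a ratio of 5.05 (adjusted p = 0.0170) and Col1a2, a chain of type I collagen, one of 2.79 (adjusted p = 0.0233). Each channel is therefore given its dye and its label here, with no claim of a cell type, and with exchanged labels every sign would turn. Per array, the median ratio of spot to local background was 10.9 or more in Cy3 and between 7.10 and 8.21 in Cy5. No spot was saturated, and the number of arrays, 4, limits the precision of every ratio.

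As background, mineral forms where calcium and phosphate meet outside the cell, and each unit of apatite laid down releases protons that must be buffered or carried off. Families 20 and 34 bring phosphate into cells together with sodium, and families 8 and 24 push calcium out in exchange for sodium, the latter with potassium as well. Family 9 exchanges sodium for protons, families 4 and 26 move bicarbonate, chloride and sulfate, and family 12 carries chloride together with sodium or potassium and so sets cell volume and chloride.

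Across the 8 families, 1 of the 46 tested genes passed the test. Slc26a7 was higher in Cy3, and limma called 0 members higher in Cy5, where 3 members had an unadjusted p under 0.05. Over all 19417 genes tested, 2.14% were called in either direction, 1.28% toward Cy5 and 0.860% toward Cy3, at an adjusted p under 0.05. The members' share of 2.17% was thus close to that of all genes. Their mean ratios spread as those of all genes did: the median size of the log2 ratio was 0.36 for members and 0.34 for all genes, and the median ratio was -0.07 and 0.01. A mean ratio of at least 2-fold was seen for 5 of 46 members, or 10.9%, against 12.5% of all genes. At an unadjusted p under 0.05 stood 6 members, or 13.0%, against 21.2% of all genes. The sign was the same on all 4 arrays for 15 members, or 32.6% (all genes: 31.4%). It was positive for 8 of them and negative for 7, and of all genes 15.3% were negative on every array. No called gene on the array had a mean log2 ratio smaller in size than 1.05, so differences well under this size were not detectable with these 4 arrays. Larger ones could be missed too: the members Slc9a9 (mean 1.80) and Slc20a1 (mean -1.49) were not called.

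**Figure D1:**
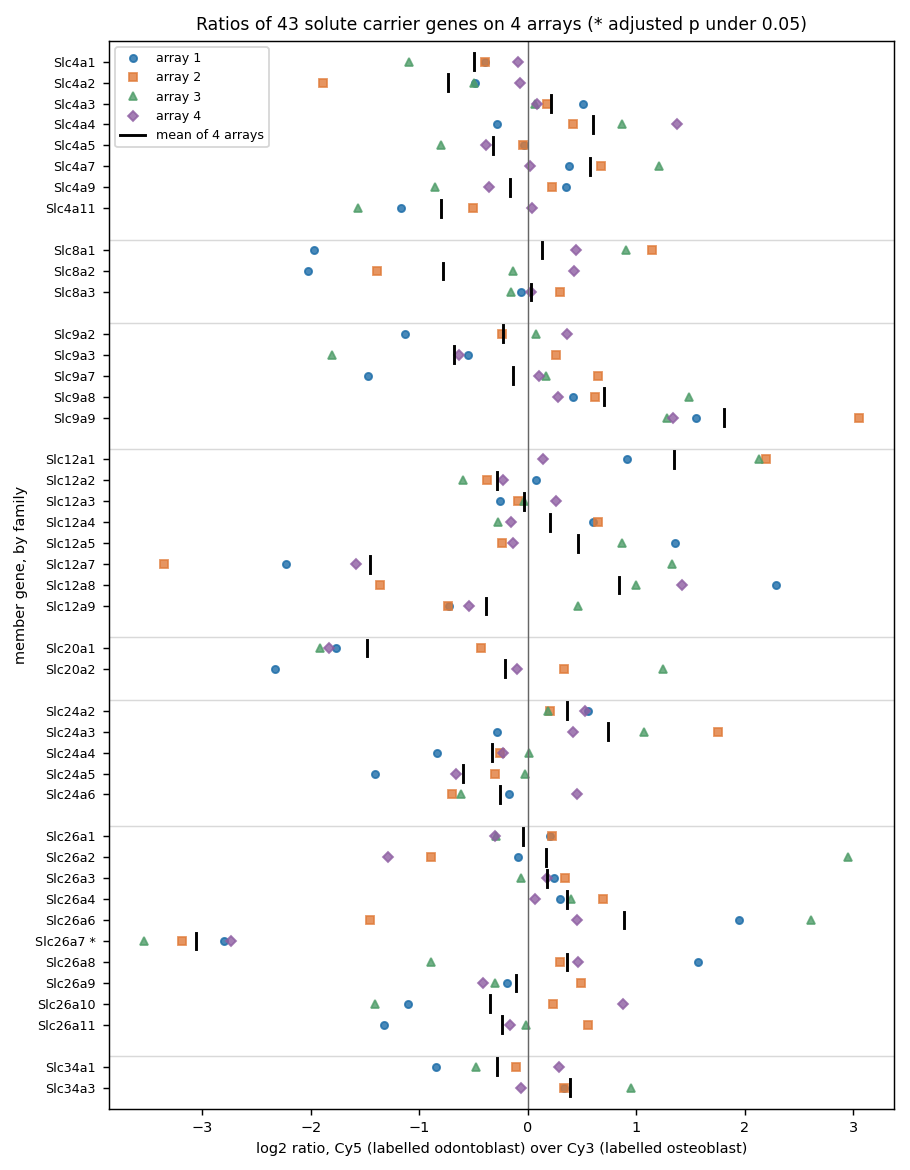
Log2 ratio of Cy5 over Cy3 (horizontal axis) for 43 tested members, grouped by family, with 1 symbol per array and a bar at the mean of 4 arrays. Slc26a7 is the only member past the threshold, and its 4 values lie between -3.53 and -2.73. Of the other points only that of Slc12a7 on array 2 (-3.35) reaches this range.

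The probe sequences matter for these results, because a probe reports what its bases capture. The 30 bases at the 3′ end (bases 31 to 60) of 6 probes are shown: those of the only called member, of the pair of members next closest to the threshold, and of Slc8a3, whose probes disagreed. Capitals mark the letters AATAAA, the polyadenylation signal, searched on the probe's own strand (the sense strand of the transcript), or an uninterrupted CA repeat.
Slc26a7: ttttctaattttccttAATAAAcagattca
Slc9a9: ccaagatgaactggccatgaattaccagga
Slc20a1, brighter probe: cttaactgAATAAAaagcctacagttttta
Slc20a1, other probe: ttcagaaggctgcaggctagtgtatgctga
Slc8a3, brighter probe: CACACACACACACACACACACACACACACA
Slc8a3, other probe: ccccgcatggtggatatgagtgttcagaaa
The letters AATAAA occurred in 13 of the 85 member probes, or 15.3%, and in 10.1% of all probes of the array. This match describes the letters and is no test of where a transcript ends. The CA repeat fills the whole window of the brighter Slc8a3 probe. Probe positions are those in the files, on mm9, and which exon or UTR they fall in was not looked up on that build.

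The sulfate and anion exchangers of family 26 held the called gene. Slc26a7, a chloride transporter known from kidney, stomach and thyroid epithelium, had log2 ratios of -2.80, -3.18, -3.53 and -2.73 on arrays 1 to 4. All 4 values were low and they lay close together, with an SD of 0.37. The normalized log2 intensity was 7.47, 8.62, 7.72 and 7.80 in Cy5 and 10.3, 11.8, 11.2 and 10.5 in Cy3, so the channels did not overlap. The mean ratio was -3.06 ± 0.21, which is 8.35-fold more signal in the channel labelled osteoblast (adjusted p = 0.00937, limma with Benjamini-Hochberg adjustment over 37391 features). Its probe lies at chr4:14432420-14432479 on the minus strand. The size hardly moved when an array was left out, with means from -3.17 to -2.90, but the call held only without array 3 (adjusted p = 0.0333) and was lost without array 1 (adjusted p = 0.0571), array 2 (0.0643) or array 4 (0.0700). In those fits limma called 0 genes on the whole array without array 1 or array 2, 24 without array 4 and 169 without array 3.

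Of 8 measured markers of 10 for dental epithelium, the cells that make enamel, 2 were called higher in Cy3 like Slc26a7, Odam at a ratio of -5.00 and Ambn at -3.05, and 0 higher in Cy5. The other 6 did not pass the test: Enam had -1.58, Klk4 -0.95, Krt5 -0.14, Krt14 -0.10, Cdh1 0.08 and Amelx 0.26. The summed level of the 8 ranged from 10.9 to 11.3 (log2) in Cy5 and from 12.3 to 13.4 in Cy3. The part of such cells in the Slc26a7 ratio was not tested. In bulk RNA of this kind, fewer cells of a type and less RNA per cell cannot be told apart.

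No other member of family 26 passed the test. Of the family's 11 genes on the array 10 were tested, and their median ratio was 0.06. Slc26a8, an anion transporter of the testis with the brightest spot of the family, had ratios of 1.57, 0.29, -0.90 and 0.46 and a mean of 0.36 ± 0.41 (adjusted p = 0.667). Slc26a6, a chloride-oxalate and bicarbonate exchanger, had a mean of 0.89 but ranged from -1.45 on array 2 to 2.61 on array 3. Its other 2 probes averaged -0.20 and 0.05. Slc26a2, the sulfate transporter that cartilage needs for its proteoglycans, had 2.95 on array 3 and -0.09, -0.89 and -1.29 on arrays 1, 2 and 4, so a single array carried its positive mean of 0.17. Slc26a4 (pendrin, an iodide and bicarbonate exchanger) was above 0 on all 4 arrays, at 0.30, 0.69, 0.40 and 0.07, with an adjusted p of 0.347. Slc26a3, a chloride-bicarbonate exchanger of the gut, stood well above background in Cy5 on 3 arrays and in Cy3 on none of the 4. Its ratios were 0.24, 0.34, -0.06 and 0.17 (mean 0.17, adjusted p = 0.612), so the arrays did not share a direction, and median centring in place of loess turned the mean to -0.094. The remaining tested members, Slc26a1, Slc26a9, Slc26a10 and Slc26a11, had means between -0.35 and -0.04. Slc26a5, the motor protein prestin of outer hair cells, was too dim to test.

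The sodium-proton exchangers of family 9 held the member next closest to the threshold. Slc9a9 encodes NHE9, an exchanger of endosomes that keeps their lumen from becoming too acidic. Its ratios were 1.55, 3.05, 1.28 and 1.34, all above 0, with array 2 far above the other 3. The mean of 1.80 ± 0.35 is 3.49-fold more signal in the channel labelled odontoblast, and its adjusted p of 0.0858 missed the threshold. Its Cy5 intensities (11.5 to 13.1, log2) did not overlap its Cy3 intensities (9.99 to 10.9). Without array 2 the mean was 1.39 (adjusted p = 0.136), and with median centring in place of loess it was 2.04 and past the threshold (adjusted p = 0.0339). The gene has 1 probe, at chr9:95129265-95129324 on the plus strand.

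**Figure D2:**
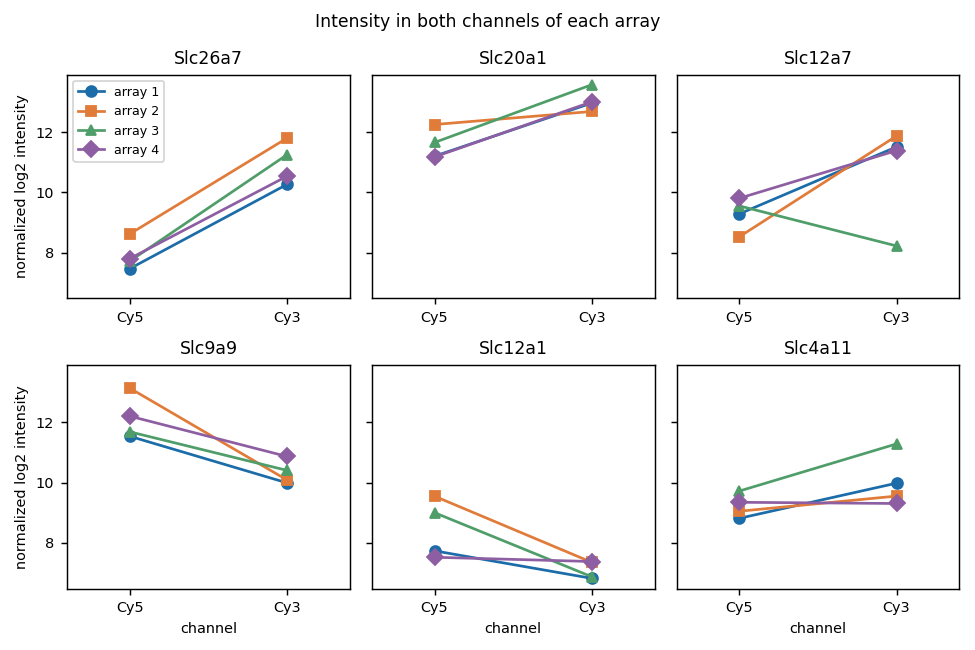
Normalized log2 intensity in Cy5 and Cy3 (vertical axis) for the 6 members shown, with 1 line per array. For Slc26a7 all 4 lines rise from Cy5 to Cy3 and the channels do not overlap, for Slc9a9 all 4 fall, for Slc20a1 the line of array 2 is nearly flat (ratio -0.43), and for Slc12a7 array 3 runs against the other 3.

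No other exchanger of the family passed the test. Slc9a7 (NHE7, of the trans-Golgi) had a mean of -0.14. Slc9a8 (NHE8) was above 0 on 4 arrays at a mean of 0.70 (adjusted p = 0.233), yet its other probe averaged -0.03. Slc9a2 averaged -0.23 and Slc9a3 (NHE3, of kidney and gut epithelium) -0.68. Of the 10 genes on the array, 7 were tested. Slc9a4, Slc9a5 and the sperm exchanger named Slc9a10 in the files (Slc9c1 today) were too dim.

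The sodium-phosphate carriers were few. Slc20a1 (Pit1), one of a pair of phosphate carriers found in most cells and studied in mineralizing ones, had ratios of -1.76, -0.43, -1.92 and -1.83. Arrays 1, 3 and 4 lay close together and array 2 stood nearer to 0. The mean was -1.49 ± 0.30, or 2.80-fold more signal in the channel labelled osteoblast, and it missed the threshold (adjusted p = 0.0962). Its Cy5 intensities of 11.2 to 12.3 (log2) did not overlap its Cy3 intensities of 12.7 to 13.6. Without array 2 the mean was -1.84 (adjusted p = 0.0847). The brighter probe, at chr2:129037286-129037345, carries AATAAA in its last 30 bases. The other probe, at chr2:129029990-129030049, gave -0.75, 0.37, -0.26 and -1.24, at a mean of -0.47 (adjusted p = 0.447 with every probe as its own feature). With the mean of both probes the gene stood at -0.98 (adjusted p = 0.173). Slc20a2 (Pit2), the other ubiquitous carrier, had -2.33, 0.34, 1.24 and -0.10, a spread over both signs, and averaged -0.21.

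Family 34 holds the phosphate carriers of kidney and gut, and neither tested member differed beyond its spread. Slc34a1 (NaPi-IIa), brightest of the family, had -0.85, -0.11, -0.47 and 0.29 at a mean of -0.28 (adjusted p = 0.556). Slc34a3 (NaPi-IIc) had 0.34, 0.33, 0.95 and -0.06 at a mean of 0.39 (adjusted p = 0.397). Slc34a2 (NaPi-IIb) was not well above background in either channel on any array.

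Of the sodium-calcium exchangers of family 8, none of 3 passed the test (0 of 3 at an unadjusted p under 0.05, limma), but the value of Slc8a3 depended on the probe. Slc8a3 encodes NCX3, an exchanger of the plasma membrane best known from muscle and brain. Its brighter probe, at chr12:82299156-82299215, ends in the 30-base CA repeat printed above. That probe had intensities between 15.9 and 16.2 (log2) in both channels on all 4 arrays, and ratios of -0.06, 0.30, -0.15 and 0.03. Its mean was 0.03 ± 0.17 (adjusted p = 0.944). The other probe, at chr12:82317709-82317768, holds no such repeat and gave 1.90, 1.15, 1.31 and 0.61, all above 0. Its mean was 1.24 ± 0.25, and with every probe as its own feature its adjusted p was 0.0958.

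The repeat probe was compared with all others of its kind on the array. A CA repeat of at least 8 units, or the same on the other strand (TG), occurred in 110 of 55681 probes, or 0.198%, and Slc8a3 had the only one among the members. Mean intensity was above 12 (log2) for 109 of these 110 probes and for 16.7% of the other probes kept. Their median intensity was 16.5, against 9.08 for the rest. Intensities of different probes are no measure of RNA levels, and these describe the probes. The ratios of the 110 ran from -0.73 to 1.02 with a median of 0.18, and 0 of them were called. Loess centres ratios at each intensity, and between 16.5 and 17 (log2) stood 28 repeat probes and 17 others. The repeat probes thus helped to set the curve that centred them, so their ratios and calls are not independent of that step. After all 110 were left out, an alternative chosen after seeing the data, the other probe represented Slc8a3 at 1.24 (adjusted p = 0.0940). Median centring in place of loess moved the repeat probe itself to 1.08 and past the threshold (adjusted p = 0.0273).

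**Figure D3:**
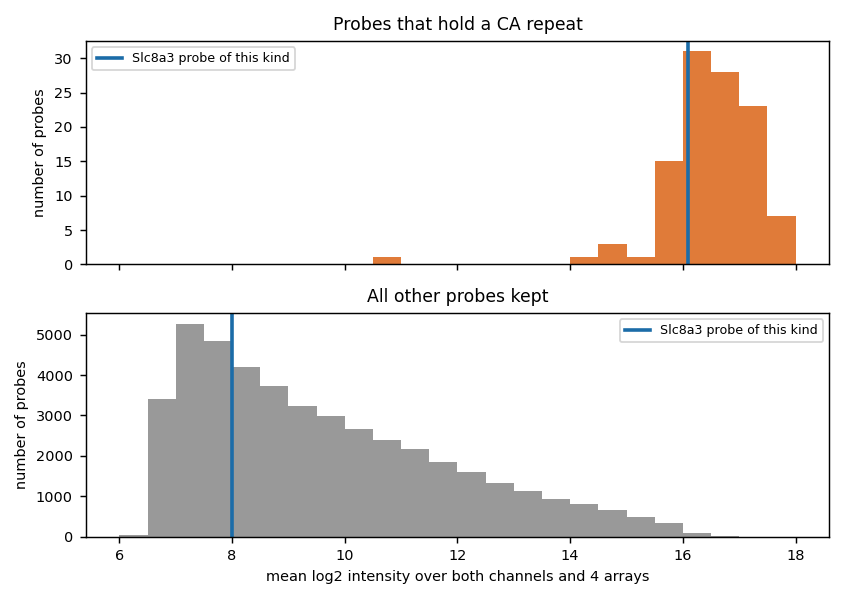
Number of probes (vertical axis) by mean log2 intensity over both channels and 4 arrays (horizontal axis), for the probes that hold a CA repeat (top) and for all other probes kept (bottom). The repeat probes gather around 16.5 and all but 1 lie above 12, while the others have a median of 9.08. Blue lines mark the Slc8a3 probe of each kind.

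The other exchangers of family 8 had wide spreads. Slc8a1 (NCX1, the cardiac form that is also found in osteoblasts) had -1.97, 1.14, 0.90 and 0.44, and array 1 alone was below 0. Slc8a2 (NCX2), the member with the largest mean of the family, had -2.02, -1.39, -0.13 and 0.43 at a mean of -0.78 (adjusted p = 0.401). Its spot was dim, well above background on 2 arrays in Cy3 and on 3 in Cy5. It ranks first only while the repeat probe stands for Slc8a3, whose other probe averaged 1.24.

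In family 24, whose members export calcium and potassium in exchange for sodium, 5 of 6 genes were tested and their median was -0.26. Slc24a3 (NCKX3), found in brain and other tissues, had the largest mean, 0.74, from ratios of -0.28, 1.75, 1.07 and 0.42 (adjusted p = 0.335). Slc24a4 (NCKX4), whose loss impairs enamel, averaged -0.33 (adjusted p = 0.435), with array 3 at 0.01 and the others below 0. Slc24a6 in the files is Slc8b1 today, the sodium-calcium exchanger of mitochondria. Its spot was the brightest of the family, with ratios of -0.17, -0.70, -0.61 and 0.45 at a mean of -0.26 (adjusted p = 0.610). The pigment cell exchanger Slc24a5 was below 0 on 4 arrays (mean -0.60, adjusted p = 0.308) and Slc24a2 above 0 on 4 (mean 0.36, adjusted p = 0.325), and neither passed. The photoreceptor exchanger Slc24a1 was too dim.

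The bicarbonate carriers of family 4 had 8 of 10 genes tested, none past the threshold (1 at an unadjusted p under 0.05, limma), with a median of -0.24. Slc4a11, a proton and hydroxide carrier of the corneal endothelium, had the largest mean. Its ratios were -1.17, -0.50, -1.57 and 0.04, so array 4 did not share the direction of the others (mean -0.80 ± 0.31, adjusted p = 0.250). Slc4a7 (NBCn1), which brings in bicarbonate with sodium, had the brightest spot. It gave 0.38, 0.68, 1.21 and 0.02, all above 0 (mean 0.57, adjusted p = 0.287). Its second probe averaged -0.0011 but was dim, at a mean intensity of 6.77 (log2). That probe stood well above background on 2 arrays in Cy3 and on 3 in Cy5. The chloride-bicarbonate exchangers Slc4a1 (AE1, the band 3 protein of red cells) and Slc4a2 (AE2, of osteoclasts and many epithelia) were below 0 on all 4 arrays at means of -0.49 and -0.74, with adjusted p of 0.305 and 0.308. Erythroid and osteoclast markers had no called gene in either direction, 0 of 4 and 0 of 7 measured. Slc4a4 (NBCe1, the sodium-bicarbonate cotransporter that ameloblasts also use) averaged 0.60 (adjusted p = 0.354), and the other probe bright enough to keep averaged 0.46. These probes overlap, at chr5:89663826-89663885 and chr5:89663838-89663897, so they are not separate measurements of the transcript. Slc4a3, Slc4a5 and Slc4a9 had means between -0.32 and 0.21, and Slc4a8 and Slc4a10 were too dim.

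All 9 cation-chloride cotransporters of family 12 were tested, 0 passed (1 at an unadjusted p under 0.05, limma) and their median was -0.03. Slc12a7 (KCC4), which lets potassium and chloride out of cells, had the largest mean and the least stable one. Its ratios were -2.23, -3.35, 1.33 and -1.58, so 3 arrays lay well below 0 and array 3 above it. The mean over all arrays was -1.46 ± 0.76 (adjusted p = 0.361), and without array 3 it was -2.39 (adjusted p = 0.0923). Its other probe was below 0 on all 4 arrays, at a mean of -0.77. Slc12a1 (NKCC2), the loop diuretic target of the kidney, was above 0 on 4 arrays, at 0.91, 2.19, 2.13 and 0.14 (mean 1.34, adjusted p = 0.179). Its spot was dim, between 6.82 and 7.38 (log2) in Cy3, and with the software's own log ratio its mean was 2.52 (adjusted p = 0.192). Slc12a2 (NKCC1), the form found in most cells, averaged -0.28, and Slc12a8 ran from -1.36 to 2.29. Slc12a3, Slc12a4, Slc12a5 and Slc12a9 had means between -0.39 and 0.46.

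Probes of a gene often disagreed in size. Of 25 members with several probes, 21 had several that were bright enough, and in 12 of these all probes had 1 sign. The median range between the probes of a gene was 0.60 on the log2 scale. It was over 1 for 3 genes: Slc8a3 (1.21), Slc26a6 (1.09) and Slc20a1 (1.02). Taken as features of their own, 71 member probes were tested and 1 was called, that of Slc26a7.

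**Figure D4:**
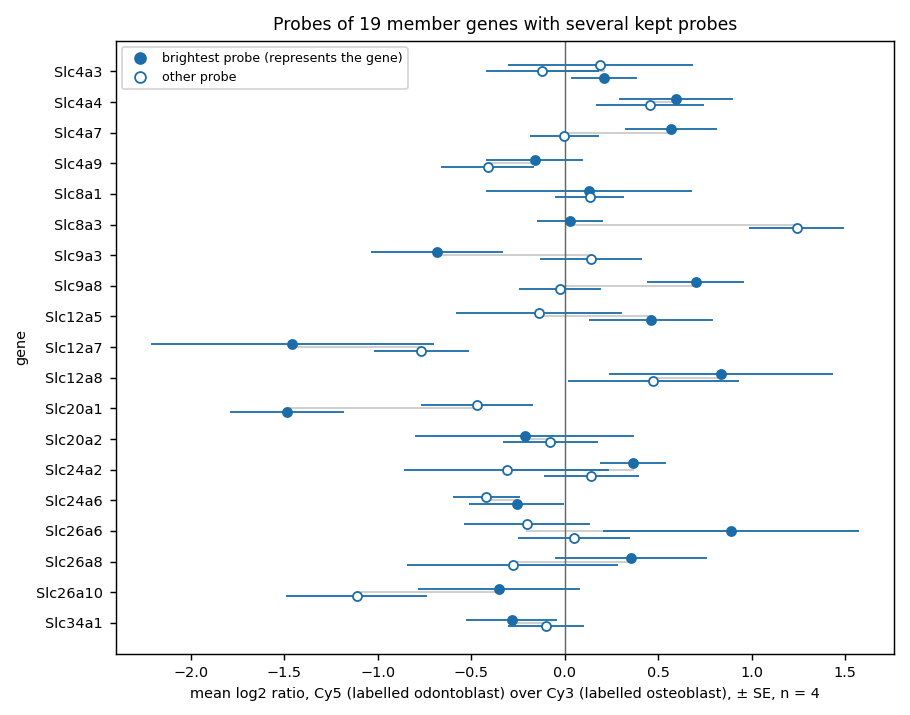
Mean log2 ratio of Cy5 over Cy3 ± moderated SE, n = 4 arrays (horizontal axis), for each probe of members with several probes kept. Symbols are filled for the brightest probe and open for the others. For Slc8a3 the brighter probe is at 0.03 and the other at 1.24, and for Slc20a1 they are at -1.49 and -0.47.

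Solute carriers depend on pumps and kinases, and 69 such partner genes in 5 lists were tested, of which 3 were called higher in each direction. Over all genes tested, 1.28% were called higher in Cy5 and 0.860% higher in Cy3. The lists were picked with earlier results of these data known, and no list was tested as a set. The sodium-potassium pump sets the sodium gradient that drives most of these carriers, and 3 of its 13 genes passed. The pump regulator Fxyd5 was higher in Cy3, at -1.11, -1.75, -1.52 and -2.08 (mean -1.62, adjusted p = 0.0386). Its relative Fxyd6 was higher in Cy5, at 2.33, 1.47, 2.36 and 3.04 (mean 2.30, adjusted p = 0.0333). All 4 arrays lay on 1 side of 0 for each of these Fxyd genes. Atp1b3, a beta subunit and the brightest uncalled gene of the list, averaged -0.26.

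Of 17 regulators of exchangers and cotransporters, 1 was called higher in Cy3 and 0 higher in Cy5, and their median was -0.37. Wnk1, the kinase at the head of the pathway that activates NKCC and NCC and shuts KCC cotransporters, had -1.21, -1.21, -1.11 and -1.09, values that lay close together (mean -1.16, adjusted p = 0.0405). Cul3, a ubiquitin ligase scaffold that acts on WNK kinases and the brightest uncalled gene, averaged -0.92 (adjusted p = 0.107). The cotransporters themselves stood at the values given above, with 0 of 9 called.

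Among phosphate genes, 2 of 8 were called, both higher in Cy5, and the median was 0.29. Phospho1, the phosphatase that frees phosphate inside matrix vesicles, had 4.37, 2.44, 4.38 and 3.28 (mean 3.62, adjusted p = 0.0235). Galnt3, which glycosylates FGF23 and so protects it, had 3.099, 1.63, 3.23 and 2.01 (mean 2.49, adjusted p = 0.0384). Phospho1 is also among the osteoblast markers, of which 5 of 10 were called, all higher in Cy5. Markers of other cells were called in that direction too, 3 of 8 for chondrocytes (Comp at 6.92, Col2a1 at 4.34 and Col11a2 at 2.22) and 2 of 9 for macrophages and leukocytes (Lyz2 at 4.42 and Laptm5 at 2.93), with 0 higher in Cy3. The uncalled markers of macrophages and leukocytes lay on both sides of 0. Tyrobp had 3.70, Fcer1g 3.49, Adgre1 1.76, Ptprc 0.94, Itgam 0.17, Cd68 -0.10 and Csf1r -0.39. The uncalled chondrocyte markers had means of 2.30 (Acan), 2.04 (Col9a1), 0.95 (Col9a2), 0.41 (Matn1) and 0.25 (Matn3). The summed log2 level of the chondrocyte markers ranged from 15.57 to 17.7 in Cy5 and from 11.97 to 13 in Cy3. Comp, at 15.20 to 17.25 in Cy5, made up much of the Cy5 sum. The summed log2 level of the macrophage and leukocyte markers ranged from 16.78 to 17.56 in Cy5 and from 16.24 to 16.7 in Cy3. Itgam makes up much of the latter sum, and it stood on one of the CA-repeat probes described above, at a mean intensity of 16.1 (log2). The part of these cells in the Phospho1 and Galnt3 ratios was not tested. Fgf23, the phosphate hormone and brightest uncalled gene, stood on one of the CA-repeat probes described above, at 0.20 (adjusted p = 0.586).

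No subunit of the vacuolar proton pump, which acidifies vesicles and the space under osteoclasts, was called among 22 tested (limma, 8 at an unadjusted p under 0.05), and their median was -0.21. All 4 arrays were below 0 for 8 of the 22 subunits, and of all genes 15.3% were negative on every array. All 4 were above 0 for 2 subunits. These were Atp6v0d2, which had the largest mean of the list at 2.03 (adjusted p = 0.0753), and Atp6v0d1 at 0.55 (adjusted p = 0.195). Atp6v0e, the brightest, averaged -0.83 (adjusted p = 0.181). Among 9 calcium pumps 0 were called (limma, 3 at an unadjusted p under 0.05), the median was -0.24, and Atp2b2, the brightest, averaged -0.16. Leaving out any 1 array left 0 partner genes past the threshold, in fits of 3 arrays that called 0, 0, 169 and 24 genes array-wide, so this says little about single genes. Over those fits the mean ratio ranged from 3.36 to 4.01 for Phospho1, from 2.25 to 2.78 for Galnt3, from 2.05 to 2.58 for Fxyd6, from -1.79 to -1.46 for Fxyd5 and from -1.18 to -1.14 for Wnk1.

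**Figure D5:**
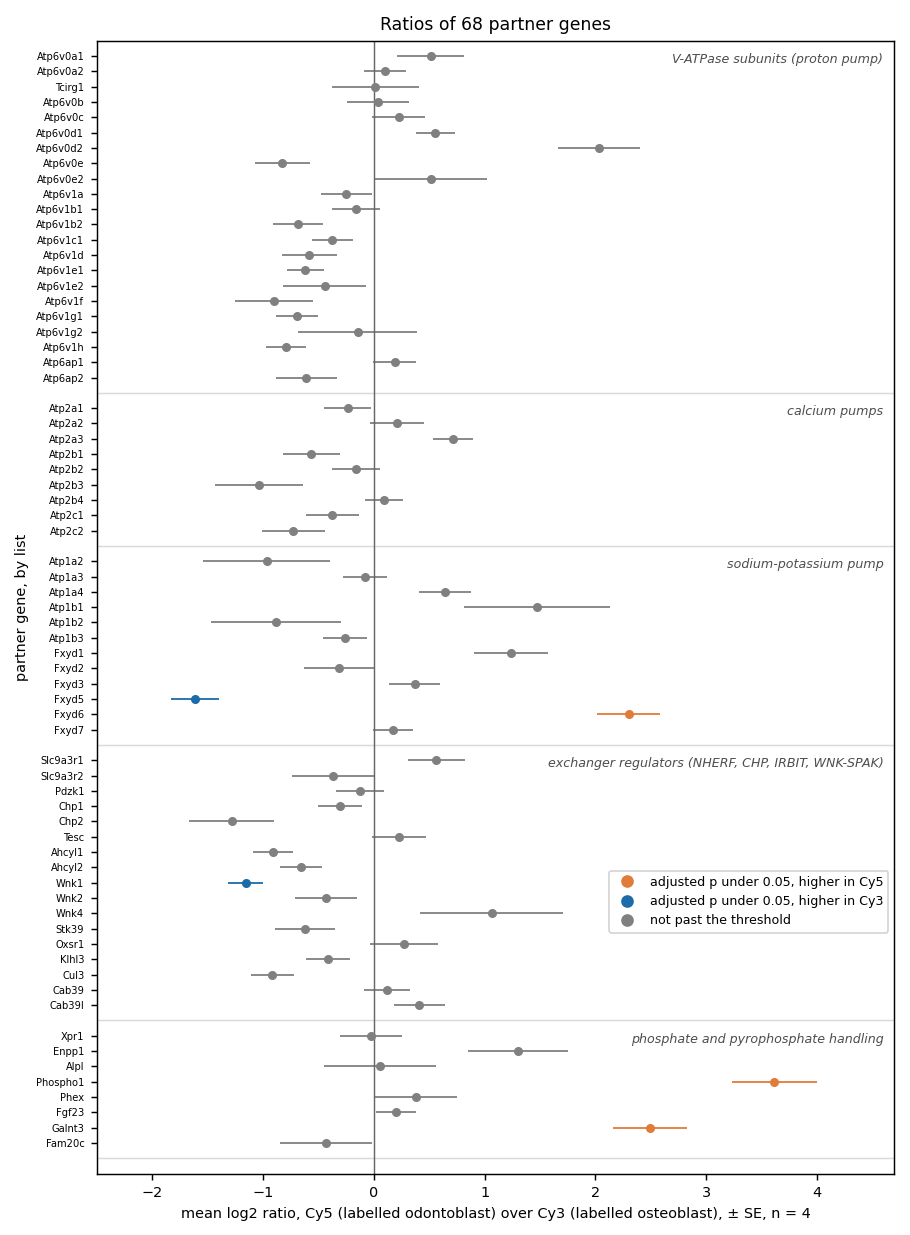
Mean log2 ratio of Cy5 over Cy3 ± moderated SE, n = 4 arrays (horizontal axis), for partner genes in 5 lists, coloured where the adjusted p was under 0.05. Phospho1 (3.62), Galnt3 (2.49) and Fxyd6 (2.30) lie to the right and Fxyd5 (-1.62) and Wnk1 (-1.16) to the left, and every subunit of the proton pump is grey.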

How the data were processed

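The deposited scanner files were written by Agilent Feature Extraction 10.7.3.1, per the file headers, and hold each spot's mean intensity and local background intensity in both dyes. They also hold the software's log10 ratio, which the deposited value table repeats (r 1.00), and its numeric flag for outlier spots (deposited as other values, 0 or 1). Later steps of the authors are not given in the sources used here. Intensities were corrected with normexp (offset 50) and normalized with loess in limma 3.58.1 (R 4.3.3), with control spots at weight 0 and outlier spots missing. Spots of a probe were averaged, and 44260 of 55681 probes well above background in 1 channel on at least 3 of 4 arrays were kept. The brightest kept probe stood for a gene. Symbols came from a RefSeq table by accession (27325 probes), as current names (3523) or as older names (1617), and 23216 probes have none. Mean ratios were tested against 0, two-sided, with lmFit and eBayes, adjusted over 37391 features. Channel levels were taken after Aquantile. The fit was tested on simulated data.

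The members and lists were chosen with earlier results of these data known. Values on every array are given for called members and for the largest mean and the brightest spot of each family. Chosen after their values were seen, they are also given for Slc8a1, Slc12a1, Slc20a2, Slc26a2, Slc26a3, Slc26a4 and the second probes of Slc8a3 and Slc20a1. Means or single arrays of other members, such as Slc4a4 and Slc26a6, and of other second probes were chosen in the same way. Of each partner list, called genes and the brightest uncalled one are named. The proton pump subunits Atp6v0d1 and Atp6v0d2 are named too, chosen after their values were seen. Some genes that these rules pick are not reported here but stay in all fits and counts.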

Additional observations from a re-analysis of the deposited data

Results flagged for a closer look

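Of 43 tested members, 3 had 1 array far from the other 3, by the gap to its nearest neighbour over the whole range (above Dixon's critical value for 4 values). Chance alone flags about 1 in 20 such groups. Array 2 was above the others for Slc9a9, at a log2 ratio of 3.05 (gap over range 0.849). It was nearer to 0 than the others for Slc20a1, at -0.43 (0.897). Array 3 stood above the others for Slc12a9, at 0.47 (0.841). None of these 3 genes passed the test.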

How the results depend on the processing

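Slc26a7 stayed past the threshold with the software's log ratio (-3.53, adjusted p = 0.0207) and in every other setting on all 4 arrays. Median centring, used in place of loess, put the median gene at 0.20 (0.01 with loess). It called 2 members (Slc8a3 and Slc9a9) and 6 partner genes higher in Cy5, and the array-wide calls went from 248 (Cy5) and 167 (Cy3) to 1155 and 236. That setting turned the sign of 6 members given here: Slc12a3 (0.13), Slc20a2 (0.056), Slc24a6 (0.075), Slc26a1 (0.14), Slc26a3 (-0.094) and Slc26a9 (0.014). The cause was not tested. With the software's log ratio, 1 partner gene was called higher in Cy5 and 0 in Cy3 (12 at an unadjusted p under 0.05, limma), and Slc8a3 turned to -0.17. Slc26a2 turned to -0.032 with scale normalization between arrays. Leaving out 1 array at a time gave 0 members higher in Cy5 (1 to 5 at an unadjusted p under 0.05, limma), 0 to 1 higher in Cy3 (2 to 5), and 0 partner genes in either direction (6 to 10 and 9 to 15), from fewer arrays. It also turned the sign of uncalled members. Their ranges over the 4 fits were Slc4a9 -0.33 to 0.071, Slc8a1 -0.21 to 0.83, Slc8a3 -0.062 to 0.088, Slc9a2 -0.43 to 0.067, Slc9a7 -0.40 to 0.30, Slc12a3 -0.13 to 0.043, Slc20a2 -0.70 to 0.49, Slc26a1 -0.13 to 0.044, Slc26a2 -0.76 to 0.66, Slc26a8 -0.046 to 0.78, Slc26a10 -0.76 to 0.0025 and Slc26a11 -0.50 to 0.12. Each array pairs both RNAs, so the test of its ratio against 0 is already a paired one. No further pairing between arrays was possible because all arrays form 1 group. The slide could not be a block, since all arrays share 1. With 4 arrays, the smallest called log2 ratio in size was 1.05, and 8 members were too dim to test.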
